A study of Mus musculus with 48 samples.

Results

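Potassium channel genes were taken as the protein-coding rows of the deposited expression table whose symbol starts with Kcn, other than Kcnj8 and Kcnj13, which were used as markers of mural cells and choroid plexus. This gave 92 genes of the 54532 in the table, of which 22046 are protein-coding. RNA of brain hemisphere and of hippocampus came from wild-type male C57Bl6 mice in 8 groups of 6 libraries, 48 in all. In each region the groups were vehicle (a saline infusion), angiotensin II (0.7 mg/kg/day, by osmotic minipump for 2 weeks), vehicle plus hydralazine (50 mg/kg in the drinking water) and angiotensin II plus hydralazine. Angiotensin II raises blood pressure and hydralazine is a vasodilator that lowers it. Ages are not given in the labels, which number the libraries within a group without saying that each came from a separate mouse. P-values therefore measure the spread between libraries.

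Potassium channels let potassium leave the cell, which repolarises the membrane after an action potential and sets its resting level. The voltage-gated families (Kcna to Kcnd, Kcnh, Kcnq) open on depolarisation, and the silent families (Kcnf, Kcng, Kcns, Kcnv) encode subunits that alter Kcnb channels without forming working channels alone. Inward rectifiers (Kcnj) and channels with a pair of pore domains (Kcnk) hold the resting potential, Kcnm, Kcnn and Kcnt open with calcium or sodium, and Kcnab, Kcne, Kcnip and Kcnmb encode auxiliary subunits. In the hippocampus these channels set firing patterns of pyramidal and granule cells, and in glia they take up potassium released by neurons.

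The pore-forming members share the selectivity filter, a short loop that lets potassium pass and holds back sodium. A search of the translated coding sequences for threonine or serine, any residue, glycine, then tyrosine, phenylalanine or leucine, then glycine found at least 1 match in 75 of the 92 members (81.5%), against 1171 of 21584 genes with a coding sequence (5.425%). All members of the Kcna, Kcnb, Kcnc, Kcnd, Kcnf, Kcng, Kcnh, Kcnj, Kcnk, Kcnn, Kcnq, Kcns, Kcnt, Kcnu and Kcnv families held it, and so did Kcnma1. No match was found in Kcnab, Kcne, Kcnip, Kcnmb or Kcnrg. The 51 coding bases around the filter are shown for 5 members that were lower and 2 that were higher in the hippocampus, 5′ to 3′ on the coding strand, with the 15 bases of the match in capitals. They come from GENCODE transcripts on GRCm38.
Kcnt1, chr2:25894349-25894399, plus strand: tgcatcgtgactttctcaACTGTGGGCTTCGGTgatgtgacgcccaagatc
Kcnh4, chr11:100750275-100750325, minus strand: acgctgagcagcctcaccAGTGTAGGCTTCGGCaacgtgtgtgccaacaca
Kcnk3, the second of its 2 filters, chr5:30622184-30622234, plus strand: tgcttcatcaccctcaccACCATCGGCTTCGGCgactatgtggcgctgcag
Kcnj9, chr1:172326166-172326216, minus strand: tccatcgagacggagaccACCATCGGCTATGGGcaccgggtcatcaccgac
Kcnc1, chr7:46427955-46428005, plus strand: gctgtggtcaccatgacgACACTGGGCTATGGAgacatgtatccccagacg
Kcnj3, chr2:55437609-55437659, plus strand: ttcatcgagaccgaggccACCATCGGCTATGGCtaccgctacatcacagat
Kcnd2, chr6:21217388-21217413 and, after an intron, chr6:21714135-21714159, plus strand: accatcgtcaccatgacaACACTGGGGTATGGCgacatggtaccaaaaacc

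These stretches are coding exon sequence. Kcnj9 and Kcnj3, partners in the G-protein-gated inward rectifier, were identical at 41 of the 51 bases, although Kcnj9 was lower and Kcnj3 higher in the hippocampus. Kcnc1 and Kcnd2, also of opposite direction, were identical at 37.

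Values were FPKM, fragments per kilobase of gene scaled to the library's total, so that levels can be compared between genes. Hemisphere libraries held 15772111 to 23504274 reads and 23161 to 25610 genes above 0. Of the hippocampal libraries, 18 held 15357856 to 21000874 reads and 18914 to 23044 genes. The other 6, 1 or more in each hippocampal group, held fewer than 16000 genes: angiotensin II replicate 3, angiotensin II plus hydralazine replicate 5, vehicle replicates 3 and 4, and vehicle plus hydralazine replicates 3 and 4. They are called few-gene libraries here. All but vehicle plus hydralazine replicate 3 held 12685806 to 16702324 reads. That replicate was the thinnest, with 1211505 reads and 7805 genes. In that library a single read on a gene of 1 kilobase is worth 0.722 FPKM, and a listed 0 can be a failed detection. Every hippocampal library, few-gene or not, held fewer genes (at most 23044) than every hemisphere library (at least 23161). The median share of mitochondrial reads was 9.33% in the hippocampus and 6.17% in the hemisphere. The part of these library differences in the region differences below was not tested. The region labels fitted the marker genes in part: 5 of 6 dentate gyrus and 8 of 9 pyramidal cell markers were higher in the hippocampus. All 8 cerebellum, 8 striatum, 7 thalamus and midbrain and 6 deep cortex markers were lower there. Cerebellum markers summed to 416 to 585 FPKM in the hemisphere libraries and to 30.7 to 344.0 FPKM in the hippocampal ones. Those sums include Pvalb and Calb2 (hemisphere medians 186 and 88.8 FPKM), which other brain cells express too. Pcp2, Cbln3 and Gabra6 of that list stood at medians of 21.9, 34.1 and 27.5 FPKM in the hemisphere, so the tissue labelled hemisphere held cerebellar RNA. In the hippocampal libraries these 3 genes never exceeded 0.181, 0.146 and 0.0860 FPKM. What those other brain parts contribute to a region difference below was not tested.

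The members' FPKM added up to 923 to 1099 (median 956) in a hemisphere library and to 708 to 950 (median 848) in a hippocampal one. Kcnab2, an auxiliary subunit of Kcna channels, was the most abundant member in both regions, with a median of 92.9 FPKM in the hemisphere and 166 FPKM in the hippocampus. Kcnj4 (50.1 FPKM) and Kcnk1 (48.9 FPKM) were also abundant in the hemisphere. At the other end, 20 members with mean levels of 0.0054 to 0.4668 FPKM did not reach the filter of 0.5 FPKM in 6 libraries and were not tested. They include Kcna3, Kcna7, Kcna10, Kcnj1, Kcnj5, Kcnj15, Kcnq1, Kcne1 and Kcnrg. Kcnrg, a soluble regulator and the only one of its name, lay at 0.0498 to 0.488 FPKM in the hemisphere and at 0.136 to 0.495 FPKM in the hippocampus outside the few-gene libraries.

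Potassium channel genes were lower in the hippocampus more often than they were higher. Averaged over the 4 treatments, 44 of the 72 tested members (61.1%) were lower and 13 (18.1%) were higher at an adjusted p under 0.05 (limma on log2(FPKM + 0.5), Benjamini-Hochberg over all genes). Among all 17643 genes tested, 47.2% were lower and 20.2% were higher. The median log2 fold change was -0.51 over the members and -0.23 over all genes, so part of the lean is shared with the whole transcriptome. Relative to the median of all genes, 42 members lay below it and 30 above. With quantile scaling, which moved the median of all genes to 0.05, 33% of all genes were lower and 37.9% higher, and 41 members were lower and 21 higher. Sizes were wide: 23 members fell by at least 1 on the log2 scale, and 1, Kcng2, rose by as much. In bulk tissue, fewer cells of a type and less RNA per cell cannot be told apart.

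**Figure D1:**
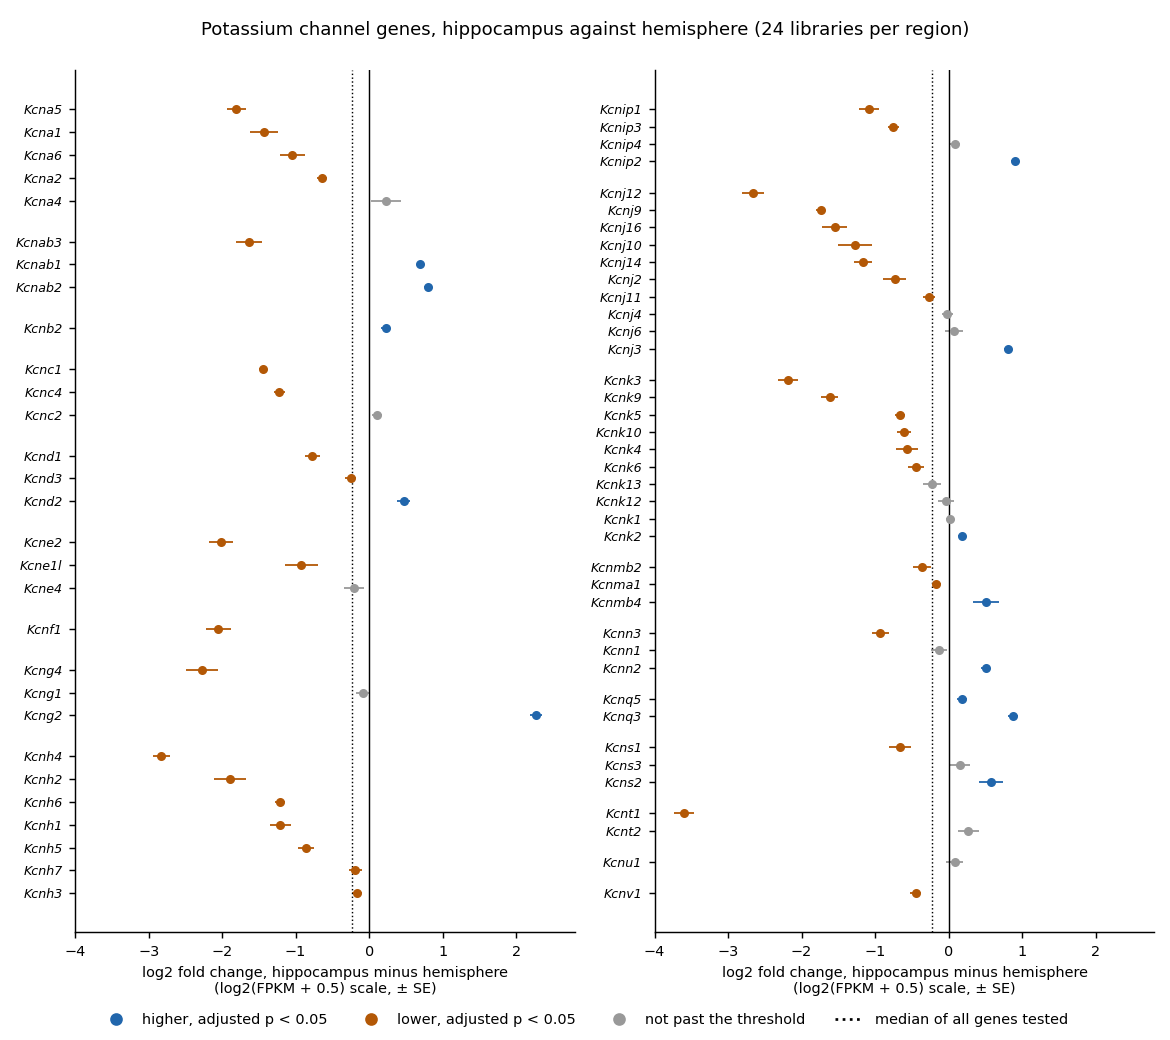
Log2 fold change of tested members between regions (x axis, hippocampus minus hemisphere on the log2(FPKM + 0.5) scale, bars are SE), ordered within subfamily on the y axis; blue is higher, brown lower and grey not past the adjusted p threshold, and the dotted line is the median of all genes. All 7 Kcnh genes lie on the lower side (Kcnh3 and Kcnh7 did not after the trend of values on gene length was taken out of every library, nor Kcnh7 with quantile scaling), while most other subfamilies hold members on both sides.

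The FPKM ranges of the 24 libraries per region did not overlap for 21 of the 72 tested members (29.2%), all of them called, against 7.71% of all genes tested. Of these members 18 (25%) were lower and 3 (4.17%) higher, against 6.29% and 1.42% of all genes. Without the few-gene libraries the number rose to 33 members (45.8%), 26 lower and 7 higher, and the share of all genes to 15.4%, with 11.2% lower and 4.22% higher. Without them 19 members were higher and 46 lower, against 31.9% and 49.8% of all genes. Members that gained a call without them included Kcna4, Kcnc2, Kcnip4, Kcnk12, Kcnk13, Kcnn1, Kcns3, Kcnt2 and Kcnu1, and Kcnmb2 lost its call.

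Of the classical voltage-gated families Kcna to Kcnd, 14 of 17 members were tested, of which 9 were lower and 2 higher. For these and each family below, the shares over all genes were 47.2% lower and 20.2% higher. In Kcna, whose channels dampen firing at axons and terminals, 4 of 5 tested members were lower, with a median log2 fold change of -1.04. Kcna2, an axonal subunit and the most abundant of them, lay at 14.3, 21.7 and 25.5 FPKM (lowest, median, highest of 24) in the hemisphere and at 5.40, 13.4 and 18.3 FPKM in the hippocampus. The ranges overlapped, and the log2 fold change was -0.64 (SE 0.0728, adjusted p = 1.62e-10, limma). Kcna1, its axonal partner, lay at 1.17, 2.90 and 5.53 FPKM in the hemisphere and at 0, 0.814 and 3.80 FPKM in the hippocampus, again with overlap (log2 fold change -1.43, SE 0.186, adjusted p = 5.41e-09). Its highest hippocampal value was in angiotensin II replicate 6. Kcna5, a delayed rectifier subunit, showed a fall of greater size: 2.08, 2.67 and 3.42 FPKM in the hemisphere against 0, 0.372 and 3.28 FPKM in the hippocampus (log2 fold change -1.81, SE 0.130, adjusted p = 1.86e-16). The overlap came from 1 few-gene library, vehicle replicate 3, and the next highest hippocampal library held 0.756 FPKM.

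Kcna6 fell without overlap, from 12.6, 14.6 and 15.8 FPKM to 0, 7.56 and 10.4 FPKM. Kcna4, which gives an inactivating current, was the exception in its family. It lay at 2.04, 3.67 and 4.08 FPKM in the hemisphere and at 0, 5.14 and 8.49 FPKM in the hippocampus, and did not pass the test (log2 fold change 0.23, SE 0.206, adjusted p = 0.335). Without the few-gene libraries its log2 fold change was 0.49 (adjusted p = 3.35e-10), and leaving out vehicle plus hydralazine replicate 3 alone, where it is listed at 0, gave an adjusted p of 0.0244.

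In Kcnb, the delayed rectifiers of cell bodies and dendrites, Kcnb2, at 0.859 FPKM in the hemisphere and 1.06 FPKM in the hippocampus (medians), was higher by 0.23 on the log2 scale. Kcnc genes encode channels that switch on and off fast and allow fast spiking. Kcnc1 was among the most clearly separated members, with 30.8, 35.2 and 38.8 FPKM in the hemisphere and 8.17, 12.8 and 18.2 FPKM in the hippocampus. No hippocampal library reached the lowest hemisphere library (log2 fold change -1.45, SE 0.0456, adjusted p = 1.99e-29). Kcnc4 fell likewise without overlap, from 26.6, 27.9 and 42.3 FPKM to 5.67, 12.4 and 20.6 FPKM.

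Kcnd genes carry the dendritic A-type current, which delays firing. Kcnd2, the most abundant of them, lay at 6.15, 13.8 and 15.6 FPKM in the hemisphere and at 7.29, 20.3 and 26.3 FPKM in the hippocampus (log2 fold change 0.47, SE 0.0878, adjusted p = 9.03e-06). Outside the few-gene libraries every hippocampal library lay above every hemisphere one, the lowest at 16.8 FPKM. Kcnd1 (log2 fold change -0.78) and Kcnd3 (-0.25, but 0.09 after the trend of values on gene length was taken out of every library) went the other way, with Kcnd3 at medians of 5.19 FPKM in the hemisphere and 4.21 FPKM in the hippocampus.

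Among the silent subunits 8 of 10 were tested, of which 4 were lower and 2 higher, beside 47.2% and 20.2% of all genes. They held extremes of both directions. Kcng2 had the greatest rise of any member: 1.90, 2.30 and 3.98 FPKM in the hemisphere against 8.21, 13.5 and 25.8 FPKM in the hippocampus, with no overlap (log2 fold change 2.27, SE 0.0818, adjusted p = 3.36e-27). Kcng4 fell from 10.2, 13.5 and 21.6 FPKM to 0, 2.42 and 20.3 FPKM (log2 fold change -2.28, SE 0.218, adjusted p = 1.46e-12). Its high hippocampal values were in 2 libraries, the thinnest one (20.3 FPKM) and vehicle replicate 5 (10.02 FPKM). Vehicle replicate 5 also held the highest sum of thalamus and midbrain markers in the hippocampus, 75.1 FPKM against at most 14.04 in the others. The largest values of that list there were Prkcd (29.3 FPKM), Slc17a6 (21.3 FPKM) and Tcf7l2 (14.7 FPKM). Th was higher in another hippocampal library (3.49 FPKM) than in vehicle replicate 5 (1.30 FPKM), and Slc6a3 stood at 0.157 FPKM in vehicle replicate 5. The list of cerebellum markers also had its highest hippocampal sum there, 344 FPKM against at most 120. That sum was nearly all Pvalb (169.6 FPKM), Calb2 (135.6 FPKM) and Zic1 (27.8 FPKM), which other brain cells express too, while Pcp2, Cbln3 and Gabra6 stood at 0.0661, 0.0497 and 0 FPKM. Without vehicle replicate 5 the log2 fold change of Kcng4 was -2.38. The part of RNA from other brain parts in the Kcng4 value of that library was not tested.

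Kcnf1 fell without overlap, from 15.5, 22.2 and 25.2 FPKM to 0, 5.55 and 9.88 FPKM (log2 fold change -2.05, SE 0.173, adjusted p = 3.17e-14). In Kcns the members parted, Kcns1 being lower and Kcns2 higher. Kcns1 lay at 5.67, 6.73 and 9.98 FPKM in the hemisphere and at 0, 4.65 and 10.4 FPKM in the hippocampus (log2 fold change -0.66, SE 0.149, adjusted p = 0.000137). Kcns2 lay at 3.02, 3.54 and 4.22 FPKM against 0, 6.24 and 8.68 FPKM (log2 fold change 0.58, SE 0.167, adjusted p = 0.00226), and its call was lost with a pseudocount of 0.1 (adjusted p = 0.0579). Kcnv1 fell by 0.45 on the log2 scale, at medians of 9.39 FPKM in the hemisphere and 6.80 FPKM in the hippocampus. Kcng1, at 8.08 and 7.63 FPKM, did not pass the test.

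Kcnq genes carry the M-current, which muscarinic receptors shut off. Kcnq3 lay at 3.52, 5.85 and 7.12 FPKM in the hemisphere and at 5.74, 10.998 and 19.0 FPKM in the hippocampus (log2 fold change 0.87, SE 0.0675, adjusted p = 1.81e-15). The ranges overlapped over all 24 libraries and parted without the few-gene libraries. Kcnq5 was higher by 0.18 on the log2 scale.

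All 7 tested Kcnh genes were lower, with a median log2 fold change of -1.21, although Kcnh7 turned to 0.15 with quantile scaling and Kcnh3 and Kcnh7 turned to 0.16 and 0.11 with the gene length trend removed. Kcnh4, of the elk group, fell from 4.45, 5.37 and 7.76 FPKM to 0, 0.304 and 1.99 FPKM without overlap (log2 fold change -2.83, SE 0.117, adjusted p = 7.51e-25). Kcnh2, the erg channel that also repolarises the heart, fell from 14.4, 16.3 and 25.5 FPKM to 0, 5.07 and 11.2 FPKM, also without overlap (log2 fold change -1.89, SE 0.218, adjusted p = 2.37e-10). Kcnh1, of the eag group, fell likewise, from a median of 8.59 FPKM to 3.84 FPKM. The smallest differences in the subfamily were those of Kcnh3 and Kcnh7. Kcnh3, the most abundant, lay at 20.5, 23.97 and 42.1 FPKM in the hemisphere and at 12.998, 22.3 and 30.3 FPKM in the hippocampus (log2 fold change -0.17, SE 0.0714, adjusted p = 0.0358). That call was lost on leaving out any of 9 single libraries (adjusted p at most 0.0651). Kcnh3 overlaps Mcrs1 on the other strand, and whether reads were counted by strand is not given in the sources used here. The call of Kcnh7 (adjusted p = 0.0484) was lost on leaving out any of 35 single libraries.

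Of the inward rectifiers, 10 of 13 were tested: 7 were lower and 1 higher, with a median log2 fold change of -0.95. Kcnj12, a strong rectifier that holds the resting potential, fell from 6.75, 9.32 and 12.1 FPKM to 0, 1.01 and 4.75 FPKM (log2 fold change -2.66, SE 0.149, adjusted p = 4.15e-20). The ranges did not overlap, and the highest hippocampal value was in vehicle replicate 5. Kcnj4, its relative and the most abundant of the subfamily, lay at 43.0, 50.1 and 83.1 FPKM in the hemisphere and at 27.6, 49.8 and 85.9 FPKM in the hippocampus. It did not pass the test (log2 fold change -0.02, SE 0.0702, adjusted p = 0.857), although quantile scaling gave -0.27 with an adjusted p of 0.000171.

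The G-protein-gated rectifiers, which slow firing when inhibitory receptors are bound, parted in direction. Kcnj9 fell from 35.8, 39.97 and 56.1 FPKM to 6.73, 11.9 and 19.5 FPKM, with no overlap (log2 fold change -1.74, SE 0.0594, adjusted p = 4.72e-28). An antisense gene overlaps Kcnj9 at a mean of 3.96 FPKM, which reads without strand cannot separate. Kcnj3 rose from 8.43, 14.9 and 16.4 FPKM to 12.3, 26.6 and 31.5 FPKM (log2 fold change 0.81, SE 0.0594, adjusted p = 4.12e-16). Only the thinnest hippocampal library lay within the hemisphere range, and without the few-gene libraries the lowest hippocampal value was 23.4 FPKM. Kcnj6, at medians of 1.04 FPKM in the hemisphere and 1.22 FPKM in the hippocampus, did not pass the test.

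Kcnj10, the rectifier with which astrocytes and oligodendrocytes clear potassium, lay at 38.9, 47.9 and 62.0 FPKM in the hemisphere and at 0, 21.6 and 37.1 FPKM in the hippocampus. There was no overlap (log2 fold change -1.28, SE 0.232, adjusted p = 4.96e-06). The 0 was listed in the thinnest library, and without that library the log2 fold change was -1.05. Kcnj16, which pairs with Kcnj10, fell likewise, from a median of 5.38 FPKM to 1.79 FPKM (log2 fold change -1.55). Of the 8 astrocyte markers 5 were lower and 2 higher, summing to 706 to 1101 FPKM in the hemisphere and 653 to 751 FPKM in the hippocampus. Their part in the Kcnj10 difference was not tested. Kcnj11, the pore of the ATP-sensitive channel, fell by 0.27 on the log2 scale, at medians of 14.7 FPKM in the hemisphere and 12.5 FPKM in the hippocampus.

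**Figure D2:**
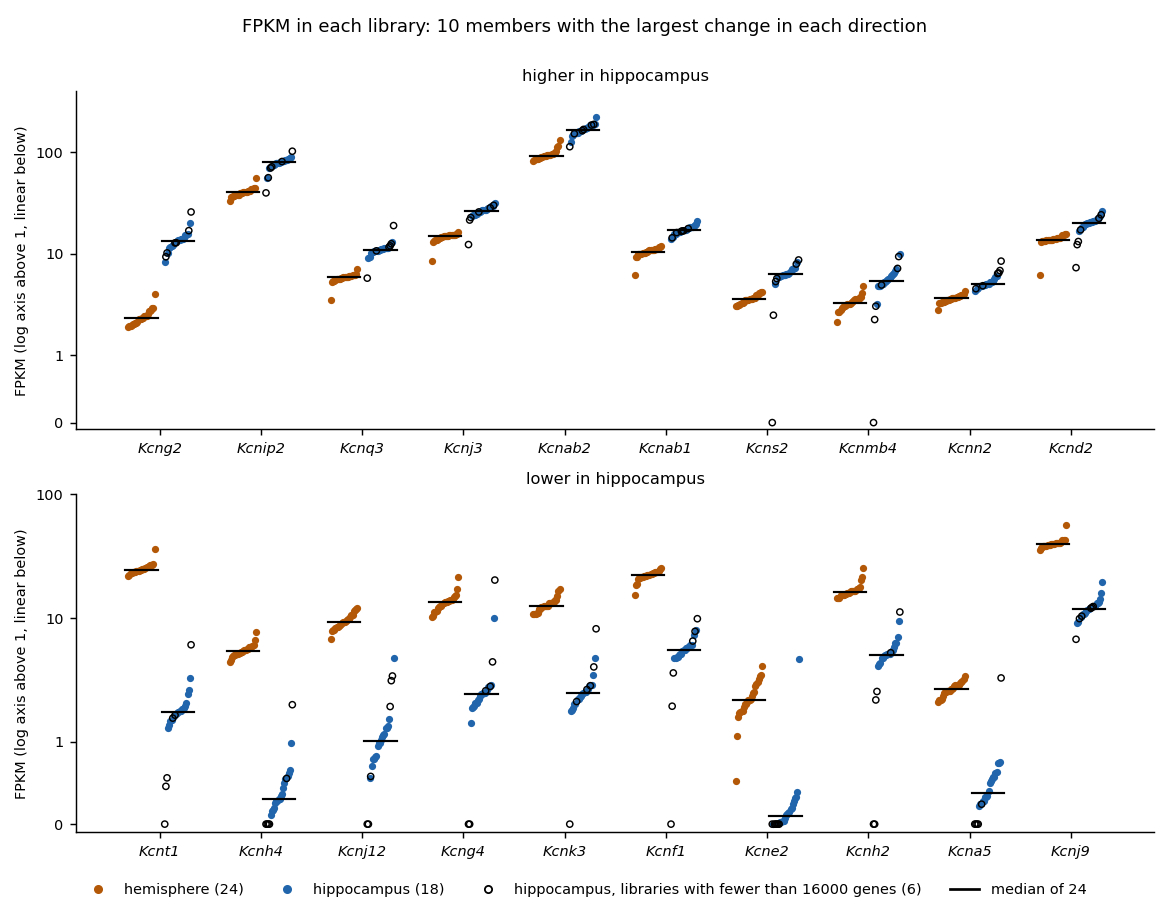
FPKM of each library (y axis, logarithmic above 1 and linear below) for the 10 members with the greatest rise (top) and fall (bottom) in the hippocampus, with hemisphere in brown, hippocampus in blue, few-gene hippocampal libraries as open circles and the median of 24 as a line. Most values at 0, and several of the highest hippocampal values, are open circles.

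Kcnk genes carry the leak current that sets the resting potential. Of 14 members 10 were tested, with 6 lower and 1 higher and a median log2 fold change of -0.50. One of the 6, Kcnk6 (-0.44), turned to 0.08 with quantile scaling and lost its call. Kcnk3, an acid-sensitive leak channel, fell from 10.7, 12.5 and 17.1 FPKM to 0, 2.46 and 8.19 FPKM without overlap (log2 fold change -2.18, SE 0.138, adjusted p = 2.87e-18). Its close relative Kcnk9 also fell without overlap, from 4.68, 7.02 and 8.98 FPKM to 0, 2.07 and 3.87 FPKM (log2 fold change -1.62, SE 0.114, adjusted p = 9.27e-17). Kcnk1 was far more abundant and nearly level, at 37.3, 48.9 and 59.3 FPKM in the hemisphere and 39.8, 49.3 and 83.7 FPKM in the hippocampus. Its log2 fold change was 0.02 (SE 0.0483, adjusted p = 0.749), which turned to -0.23 with quantile scaling. Kcnk2, a channel opened by stretch and lipids, was the member called higher, by 0.18. It lay at medians of 11.03 FPKM in the hemisphere and 12.6 FPKM in the hippocampus. Its span overlaps a processed pseudogene on the same strand, Pdcd5-ps, at a mean of 44.6 FPKM. What that overlap adds to the Kcnk2 values was not tested.

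Among the channels opened by calcium or sodium, Kcnt1 had the greatest fall of all members. This sodium-activated channel lay at 22.1, 24.7 and 36.5 FPKM in the hemisphere and at 0, 1.73 and 6.08 FPKM in the hippocampus. The ranges did not overlap, and the log2 fold change was -3.60 (SE 0.136, adjusted p = 2.43e-26). Its relative Kcnt2, at medians of 1.42 FPKM in the hemisphere and 1.90 FPKM in the hippocampus, did not pass the test (log2 fold change 0.27, adjusted p = 0.0917), and did without the few-gene libraries (0.42, adjusted p = 8.24e-05). Kcnu1, a relative opened by alkaline pH that is known from sperm, stayed under 2 FPKM in every library and did not pass the test.

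Kcnm and Kcnn held 6 tested members, with 3 lower and 2 higher, beside 47.2% and 20.2% of all genes. One of the 3, Kcnmb2 (-0.36), was called higher with quantile scaling (0.16, adjusted p = 0.0181, limma). Kcnma1, the pore of the large-conductance calcium-activated channel, lay at 5.66, 7.36 and 8.76 FPKM in the hemisphere and at 3.02, 6.30 and 9.50 FPKM in the hippocampus. The difference was small (log2 fold change -0.17, SE 0.0622, adjusted p = 0.015, limma). With the gene length trend removed Kcnma1 was called the other way (0.11, adjusted p = 0.0313). Its call was lost with quantile scaling (-0.0034, adjusted p = 0.951). It was also lost with a replicate block and no few-gene libraries (-0.097, adjusted p = 0.101). Kcnmb4, its neuronal auxiliary subunit, was higher: 2.12, 3.25 and 4.80 FPKM in the hemisphere against 0, 5.44 and 9.86 FPKM in the hippocampus (log2 fold change 0.51, SE 0.174, adjusted p = 0.00926). With a pseudocount of 0.1 its adjusted p was 0.104 (limma). Kcnmb4, at a mean of 4.37 FPKM over all libraries, overlaps the antisense gene Kcnmb4os2 at a mean of 2.23 FPKM. Reads without strand cannot separate these genes where they overlap. Among the small-conductance channels, which follow trains of spikes with a pause, Kcnn2 rose without overlap from 2.81, 3.62 and 4.27 FPKM to 4.28, 5.01 and 8.46 FPKM (log2 fold change 0.50, SE 0.0569, adjusted p = 1.40e-10). The gap between the ranges was narrow, 4.27 against 4.28 FPKM. Kcnn3 fell from a median of 1.59 FPKM to 0.701 FPKM (log2 fold change -0.93).

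Auxiliary subunits of Kcnab, Kcne, Kcnip and Kcnrg numbered 13, of which 10 were tested. Of these 5 were lower and 3 higher, beside 47.2% and 20.2% of all genes. Kcnab2, which trims and traffics Kcna channels, lay at 82.4, 92.9 and 133 FPKM in the hemisphere and at 114, 166 and 223 FPKM in the hippocampus, with some overlap (log2 fold change 0.80, SE 0.0505, adjusted p = 2.25e-18). Kcnab1, which makes them inactivate, rose without overlap from 6.20, 10.5 and 11.9 FPKM to 14.1, 17.0 and 21.02 FPKM (log2 fold change 0.70, SE 0.0485, adjusted p = 5.94e-17). Kcnab3 fell by 1.64 on the log2 scale, from a median of 25.4 FPKM to 8.99 FPKM. Of the 3 beta subunits 2 rose, while 4 of the 5 tested Kcna pore subunits fell.

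Kcnip proteins bind calcium and steer Kcnd channels. Kcnip2 lay at 33.2, 40.3 and 56.2 FPKM in the hemisphere and at 39.9, 79.6 and 103 FPKM in the hippocampus, the ranges overlapping (log2 fold change 0.90, SE 0.0581, adjusted p = 4.40e-18). Kcnip3, also known as a transcriptional repressor, went from 34.4, 39.9 and 48.2 FPKM down to 7.94, 23.98 and 32.8 FPKM without overlap (log2 fold change -0.75). Kcnip1 fell by 1.08, and Kcnip4 did not pass the test.

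In Kcne, single-pass subunits, 2 of 3 tested members were lower, among them Kcne2, which is known to be abundant in choroid plexus. Kcne2 lay at 0.527, 2.17 and 4.08 FPKM in the hemisphere and at 0, 0.0929 and 4.69 FPKM in the hippocampus (log2 fold change -2.02, SE 0.161, adjusted p = 5.65e-15). The highest hippocampal value was in angiotensin II replicate 4, and no other hippocampal library exceeded 0.385 FPKM. That library held choroid plexus markers summing to 2004 FPKM, against at most 163 FPKM in the other hippocampal libraries and 290 to 835 FPKM in the hemisphere. Without it the log2 fold change was -2.14, and the part of choroid plexus RNA in the region difference was not tested. Kcne1l, the most abundant of the subfamily, fell from a median of 5.57 FPKM to 3.17 FPKM (log2 fold change -0.92, SE 0.224, adjusted p = 0.000352).

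Ratios within a library do not depend on its scaling, and 5 pairs of related members, chosen after their values were seen, are given as a description. Kcnj3 over Kcnj9 was 0.150 to 0.425 (median 0.372) in the hemisphere and 1.37 to 2.97 (median 2.22) in the hippocampus, so that Kcnj9 was the more abundant in every hemisphere library and Kcnj3 in every hippocampal one. Kcnip2 over Kcnip3 was 0.859 to 1.21 (median 1.02) in the hemisphere and 2.20 to 5.03 (median 3.25) in the hippocampus. The 24 libraries of each region did not overlap in either of these ratios. Nor did they for Kcnab2 over Kcnab3, at 3.33 to 5.32 in the hemisphere and at least 8.94 in the hippocampus, where Kcnab3 is listed at 0 in the thinnest library. Kcnd2 over Kcnd3 overlapped, at 2.33 to 3.13 against 1.86 to 9.10, and parted without the few-gene libraries (3.88 to 6.73). Kcnj10 over Kcnj16 overlapped even without them, at 6.96 to 13.1 in the hemisphere and 7.83 to 21.2 in the hippocampus.

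**Figure D3:**
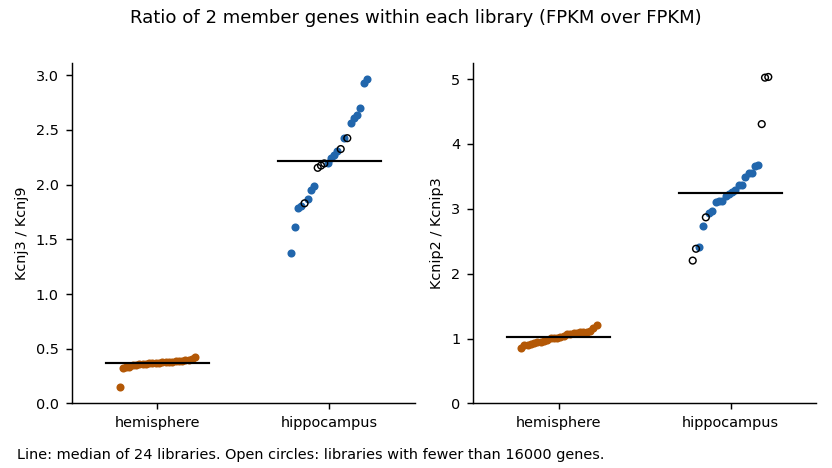
Ratio of FPKM of 2 members in each library (y axis) by region, for 2 of the 5 pairs, with the median of 24 as a line and few-gene libraries as open circles. The regions do not overlap in either panel, and Kcnj3 over Kcnj9 crosses 1 between them.

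Genes whose proteins work with these channels were read from a separate list of 24, of which 23 were tested. Of these 13 were lower and 7 higher, beside 47.2% and 20.2% of all genes, with a median log2 fold change of -0.34. The Kcnd partners Dpp6 and Dpp10 went opposite ways: Dpp6 was higher by 0.28 and Dpp10 fell by 2.03, from a median of 6.12 FPKM to 1.01 FPKM. Of the hyperpolarisation-activated channels, Hcn3 (-1.65) and Hcn4 (-1.98) were lower, while Hcn2 did not pass the test. Lgi1, which binds Kcna complexes, was higher by 0.56, and Cntn2, which anchors Kcna channels along axons, fell by 1.51 on the log2 scale. Calmodulin, the calcium sensor of Kcnn and Kcnq channels, is made from several genes, of which Calm2 and Calm3 were higher by 0.89 and 0.78.

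The region difference was read in each treatment as well. In vehicle 11 members were higher and 35 lower (12.7% and 29.5% of all genes), and in angiotensin II 10 and 32 (12.4% and 24.6%). In vehicle plus hydralazine 7 were higher and 37 lower (12.4% and 38.4%), and with both drugs 9 and 33 (13.6% and 28.8%). Of the 44 members lower on average, 30 were called lower in all 4 treatments and 3 in none, and 43 had the same sign in all 4. Of the 13 higher on average, 7 were called in all 4 and 11 had the same sign. The average is made of these same 4 comparisons, so agreement in sign is partly built in and is no separate support. The matching shares over all genes were not computed. Group medians of Kcnt1 were 23.6 to 25.3 FPKM over the 4 hemisphere groups and 1.51 to 1.86 FPKM over the hippocampal groups. Those of Kcnc1 were 33.6 to 38.2 and 12.4 to 12.9 FPKM, and those of Kcnj3 13.8 to 15.3 and 24.1 to 27.6 FPKM. For these 3 genes the 4 groups of a region were closer to each other than to any group of the other region.

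**Figure D4:**
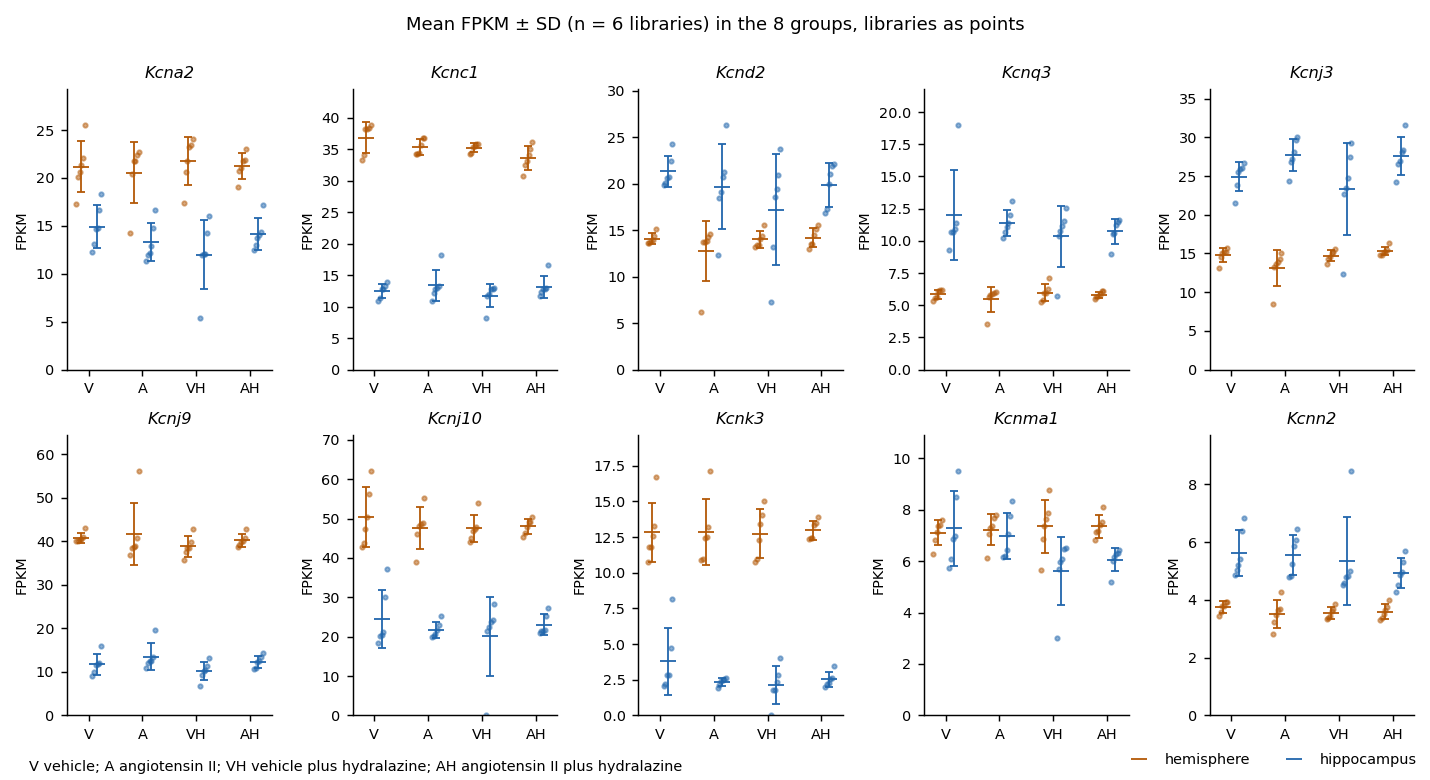
FPKM of 10 members in the 8 groups (x axis, treatment; y axis, FPKM from 0), with points for libraries, dashes for the mean and bars for SD (n = 6). The regions stand apart for Kcnc1, Kcnj9 and Kcnk3 in each treatment, and for Kcnma1 they run together.

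No member passed the threshold in any treatment comparison within a region. In the hemisphere, angiotensin II against vehicle left 0 of 72 members called and 0.0717% of all genes (12 of 16747). At an unadjusted p under 0.05 there were 8 members (11.1%), against 9.24% of genes. The smallest p was that of Kcna4, at 3.25, 3.89 and 4.08 FPKM in vehicle and 2.04, 3.41 and 3.55 FPKM in angiotensin II (lowest, median and highest of 6). Its log2 fold change was -0.28 (SE 0.0947, unadjusted p = 0.00668, adjusted p = 0.428, limma), and the ranges overlapped. Kcnc4, the next smallest, lay at 26.6, 27.3 and 27.7 FPKM in vehicle and at 27.7, 29.7 and 42.3 FPKM in angiotensin II (log2 fold change 0.19, SE 0.0722, adjusted p = 0.49). Both the 2.04 FPKM of Kcna4 and the 42.3 FPKM of Kcnc4 were in angiotensin II replicate 6. That library stood apart from the other hemisphere libraries, with 2.77% of reads on mitochondrial genes against a median of 6.17%.

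The other hemisphere comparisons also called 0 members and 0% of genes: 0 members had an unadjusted p under 0.05 for vehicle plus hydralazine against vehicle (1.67% of genes). There were 4 (5.56%, against 4.54% of genes) for angiotensin II plus hydralazine against angiotensin II, and 4 (5.56%, against 5.21%) for angiotensin II plus hydralazine against vehicle. In the hippocampus, where 68 members and 15267 genes were tested, the 4 comparisons called 0 members and 0% of genes. Unadjusted p under 0.05 was met by 2 members (2.94%, against 1.38% of genes) for angiotensin II against vehicle. It was met by 1 (1.47%, against 1.65%) for both drugs against angiotensin II and by 4 (5.88%, against 1.98%) for both drugs against vehicle. For angiotensin II against vehicle they were Kcng1 (log2 fold change 0.50, SE 0.231, unadjusted p = 0.0416) and Kcns1 (0.83, SE 0.400, unadjusted p = 0.0487), both with an adjusted p of 1 by limma. Kcng1 lay at 2.26, 6.73 and 8.08 FPKM in vehicle and at 6.31, 8.06 and 13.5 FPKM in angiotensin II, and Kcns1 at 0, 3.95 and 5.13 against 4.35, 5.12 and 5.41 FPKM. The ranges of both overlapped.

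Vehicle plus hydralazine against vehicle had 8 hippocampal members with an unadjusted p under 0.05 (11.8%, against 5.64% of genes), 2 with a positive and 6 with a negative sign, Kcnj12 (-0.92) and Kcnj6 (-0.90) having the most negative values. The median over the members was -0.25, against -0.12 over all genes. The vehicle plus hydralazine group holds the thinnest library, where Kcnj12 is listed at 0. Tests of whether a treatment effect differed between regions also called 0 members and 0% of genes: 4, 7 and 2 of 72 members had an unadjusted p under 0.05 for angiotensin II, hydralazine and both drugs, against 2.92%, 4.87% and 1.67% of genes.

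**Figure D5:**
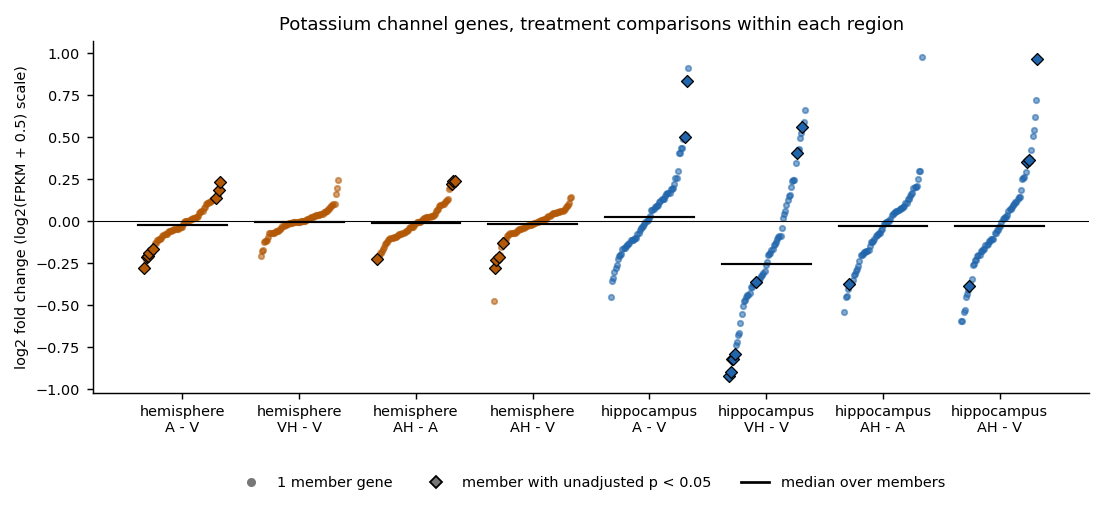
Log2 fold change of each tested member (points, y axis) in the 4 treatment comparisons of each region (x axis; V vehicle, A angiotensin II, VH vehicle plus hydralazine, AH angiotensin II plus hydralazine), with diamonds at an unadjusted p under 0.05 and a line at the median. Hemisphere values lie closer to 0 than hippocampal ones, and the median of hippocampal VH - V is -0.25.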

How the data were processed

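The deposited table gives FPKM per gene for each of the 48 libraries, made by the authors from their reads. Per the submitters' processing notes, DESeq 1.10.1 and the builds GRCm38 and mm10 were named. The aligner, the counter and any use of strand: not given in the sources used here. FPKM times gene length was a whole multiple of 1 read's worth, within 0.1 of a read, for 99.998% of values above 0, which gave each library's reads. The precision of a value is limited by that depth.

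Values were tested as log2(FPKM + 0.5) with limma 3.58.1 in R 4.3.3 (trend and robust prior, two-sided), on genes reaching 0.5 FPKM in 6 or more of the fitted libraries, with Benjamini-Hochberg adjustment over all genes and a threshold of 0.05. Fold changes are on that scale, which understates the change of low genes. Region comparisons used all 48 libraries with 1 mean per group. Treatment comparisons used the 24 libraries of a region. The averaged region comparison was checked on simulated data, where 55% of 1.5-fold and 89% of 2-fold changes were recovered. Only 100 genes of each size were changed there among 16998, whereas 47.2% of all genes were called lower and 20.2% higher in the data. The adjustment therefore acts differently in the data, and these rates do not give the recovery of the real comparison. The treatment comparisons were not checked in this way, so the size of change they could miss is not known. Libraries with fewer than 16000 genes above 0 were kept in the tests and left out in an alternative.

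The members and lists were chosen with earlier results of these data known. Genes described in full were the 10 members with the largest called change in each direction (group mean of 1 FPKM or more somewhere), the most abundant member of each subfamily, a set of 10 well-known channels, and, since no treatment comparison called a member, the 2 with the smallest p for angiotensin II in each region. Others named were chosen after their values were seen. Alternatives varied the pseudocount, the filter, the scaling, the prior, library weights, a gene length trend, the libraries used and a replicate block. Same-numbered hippocampal and hemisphere libraries did not deviate together, so the numbers were not taken to pair them. Within a region, some same-numbered libraries of different treatments did, and the main treatment comparisons took no account of number. Some genes and sequences are not reported here, and counts over the members in the region and treatment comparisons include such genes.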

Additional observations from a re-analysis of the deposited data

Results flagged for a closer look

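Within each group of 6 libraries, the highest and the lowest value of 36 described members were compared with the other 5 libraries, and in 288 pairs of gene and group there were 66 values whose gap to the nearest other one exceeded Dixon's 95% limit. Chance alone flags about 5% of such groups. Of the 66 values 32 were in few-gene libraries, and 12 libraries held all of them. Each value is followed by the range of the other 5 libraries of its group, all in FPKM.

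Hemisphere angiotensin II replicate 6 held 19 of the values. It was highest for Kcnab2, 133 (86.7 to 99.8), Kcnc4, 42.3 (27.7 to 30.3), Kcng2, 3.98 (1.90 to 2.28), and Kcng4, 21.6 (11.2 to 13.8). It was also highest for Kcnh2, 25.5 (15.3 to 17.5), Kcnh3, 42.1 (22.4 to 25.03), Kcnh4, 7.76 (4.56 to 5.57), and Kcnip2, 56.2 (37.6 to 41.1). The same held for Kcnj4, 83.1 (43.7 to 54.95), Kcnj9, 56.1 (36.9 to 40.8), Kcnk3, 17.1 (10.9 to 13.2), and Kcnt1, 36.5 (23.1 to 25.7). It was lowest for Kcna2, 14.3 (20.5 to 22.7), Kcnab1, 6.20 (9.92 to 11.6), Kcnd2, 6.15 (13.7 to 14.6), and Kcnj3, 8.43 (13.2 to 15.1). Further low values were those of Kcnk1, 37.3 (47.1 to 53.0), Kcnq3, 3.52 (5.65 to 6.02), and Kcnv1, 5.03 (8.83 to 10.2). This library held 2.77% of its reads on mitochondrial genes, the lowest share in the hemisphere.

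Hippocampal angiotensin II replicate 6, also the lowest of its region in mitochondrial reads (5.74%), was highest for 4 members. They were Kcna1, 3.80 (0.107 to 1.25), Kcnab2, 223 (164 to 180.2), Kcnc1, 18.2 (10.9 to 13.3), and Kcnj9, 19.5 (10.99 to 13.5).

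Hippocampal vehicle plus hydralazine replicate 3, the library of 1211505 reads, held 13 of the values. It was highest for Kcng1, 13.9 (6.80 to 9.34), Kcng2, 25.8 (11.4 to 13.6), Kcng4, 20.3 (1.43 to 4.42), and Kcnj4, 85.9 (44.6 to 59.7). Kcnk1, 83.7 (47.0 to 53.5), and Kcnrg, 9.89 (0 to 0.299), were highest there as well. Listed at 0 there were Kcnj10 (21.5 to 28.2), Kcnmb4 (4.84 to 7.17), Kcns2 (5.32 to 7.25) and Kcnt1 (1.37 to 1.76). Low values above 0 were those of Kcnc1, 8.17 (11.7 to 13.03), Kcnma1, 3.02 (5.71 to 6.50), and Kcnq3, 5.74 (10.4 to 12.5).

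Hippocampal angiotensin II plus hydralazine replicate 5, a few-gene library, held 9. It was highest for Kcnc1, 16.5 (11.7 to 12.97), Kcne1l, 9.002 (2.70 to 4.93), Kcnf1, 7.81 (4.84 to 5.79), and Kcnh2, 11.2 (4.13 to 5.16). The same held for Kcnj12, 3.12 (0.787 to 1.53), and Kcns1, 10.4 (4.53 to 5.41). It was lowest for Kcnc4, 5.67 (11.7 to 14.7), Kcnma1, 5.19 (5.99 to 6.45), and Kcng4, listed at 0 (1.93 to 2.85).

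Hippocampal vehicle replicate 3, another few-gene library, held 6: Kcna5, 3.28 (0.242 to 0.543), Kcnc4, 20.6 (10.4 to 14.03), Kcnmb4, 9.38 (4.91 to 6.31), Kcnq3, 19.0 (9.28 to 11.4), and Kcnt1, 6.08 (1.60 to 2.60), were highest, and Kcne1l was listed at 0 (3.02 to 4.66). Hippocampal vehicle replicate 5 was highest for Kcng4, 10.02 (0 to 2.58), and Kcnj12, 4.75 (0.579 to 1.92), and lowest for Kcnv1, 3.75 (6.59 to 7.88). Hippocampal angiotensin II replicate 4 was highest for Kcne2, 4.69 (0 to 0.385), as described with the choroid plexus markers.

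The last of the hippocampal values were in 2 few-gene libraries and 1 other. Angiotensin II replicate 3 was highest for Kcng1, 13.5 (6.31 to 8.18), and Kcnj12, 3.40 (0.702 to 1.13). Vehicle plus hydralazine replicate 4 was highest for Kcnh4, 1.99 (0 to 0.4998), and Kcnn2, 8.46 (4.52 to 4.99), and replicate 5 of that group for Kcnh3, 28.6 (18.5 to 22.1). In the hemisphere, vehicle replicate 1 was highest for Kcnab2, 114 (89.5 to 94.3), and Kcnj9, 43.1 (40.1 to 41.0), and lowest for Kcnf1, 15.5 (21.4 to 23.1). Vehicle plus hydralazine replicate 1 was highest for Kcnab2, 115 (85.1 to 94.1), Kcnc4, 31.9 (26.6 to 28.6), and Kcnh2, 21.3 (14.4 to 16.4).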

How the results depend on the processing

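The count of members lower in the hippocampus stayed within 1.5 times its value under every alternative run, averaged over treatments and within each treatment, and so did all counts of 0 in the treatment comparisons and in the region differences. Counts of members higher in the hippocampus moved more. With quantile scaling they were 21 averaged over treatments, 17 in angiotensin II, 11 in vehicle plus hydralazine and 17 with both drugs. With the trend on gene length taken out library by library they were 21 averaged, 18 in vehicle, 17 in angiotensin II, 14 in vehicle plus hydralazine and 16 with both drugs. Library weights gave 15 in vehicle plus hydralazine and 18 with both drugs, leaving out the few-gene libraries gave 18 in angiotensin II and 15 in vehicle plus hydralazine, and fitting only the groups compared gave 15 with both drugs. The cause was not tested. Over the 72 tested members, quantile scaling turned the sign of 9. They include 3 that had been called lower, Kcnmb2 (0.1625), Kcnh7 (0.1537) and Kcnk6 (0.0841), and 2 that had not been called, Kcnk1 (-0.2305) and Kcne4 (0.3341), which then passed. Removing the gene length trend turned 8, of which Kcnh3 (0.1629), Kcnma1 (0.1102), Kcnh7 (0.1082) and Kcnd3 (0.0859, also the Kcnd median) had been called lower. A pseudocount of 0.1 turned 1 and library weights 2, none of them called either way, and the other 6 settings of pseudocount, filter, scaling and prior turned 0. With the gene length trend removed 32.2% of all genes were higher and 32.8% lower. Of the pairs of same-numbered libraries of the 2 regions none of 24 correlated above 0.1 in their deviations from the group means (-0.25 to 0.07), and 4 correlated best with their own number. Same-numbered libraries of different treatments within a region were compared likewise. In the hemisphere 10 of 36 such pairs exceeded 0.1 (-0.34 to 0.66, median 0.0073). In the hippocampus 12 of 36 did (-0.20 to 0.29, median 0.0795). What such pairs share was not tested. With a replicate block, taken over treatment and number, 12 members were higher and 43 lower averaged over treatments, and no count of calls moved by over 1.5 times. Depth limits the values of low members, most in the thinnest library. In any few-gene library a 0 can be a missed gene, although those other than the thinnest held 12685806 to 16702324 reads. Why they held few genes was not tested.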
